A study of Mus musculus with 23 samples.

Results

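A set of 35 genes of the endoplasmic reticulum (ER) was followed in RNA of mouse lung tumors driven by activated BRAF, BRAFV600E. The genes were chosen by symbol, and all 35 were found among the 35455 and 35454 genes of the 2 deposited tables. All 35 also had a mean of at least 10 normalized counts in each table, and so were among the 17558 and 17424 genes tested. They comprise 9 chaperones and their cofactors, 6 lectin chaperones and disulfide isomerases, 5 stress sensors and effectors (Ern1, Atf6, Eif2ak3, Wfs1 and Xbp1), 9 genes of ER-associated degradation (ERAD) and 6 subunits of the protein channel of the ER membrane and of its partner complex. Their level was compared between genotypes, between weeks after tumor initiation, and against Sftpc, the surfactant protein C gene that marks alveolar type 2 (AT2) pneumocytes.

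All mice carried 1 copy of the Braf-CAT allele (genotype CAT/+), which after Cre recombination yields BRAFV600E together with the red fluorophore tdTomato. Cre came from an adenovirus with the Sftpc promoter, which limits initiation to cells that express Sftpc, and tdTomato-positive cells were sorted from dissociated lungs. In the first table, 6 libraries of this genotype (BRAF hereafter: 1 at 2 weeks, 3 at 6 weeks and 2 at 12 weeks) stand beside 8 libraries (BRAF/PI3K: 2, 4 and 2) from mice that in addition had 1 Pik3ca allele encoding activated PI3KαH1047R (CAT/+; HR/+). The second table holds 12 week tumors of BRAF mice with 1 mutant copy of the PGC1α gene Ppargc1a (CAT/+; PGC1a mutant/+, called Het, 5 libraries) or 2 mutant copies (CAT/+; PGC1a mutant/mutant, called Null, 4 libraries). That allele is floxed and becomes null only in cells reached by Cre, and the mice of both groups carried at least 1 such copy. The mice were adults of mixed strain background and of both sexes. In the first table the BRAF libraries were mostly female by label and the BRAF/PI3K libraries mostly male. At 2 weeks the BRAF library was female and both BRAF/PI3K libraries were male, so that sex and genotype coincide. Mice kept for 12 weeks had received less virus than those kept for 2 or 6 weeks, so that in comparisons with 12 weeks time and virus dose cannot be told apart. The labels do not say that each library came from a different mouse, and p-values therefore measure the spread between libraries.

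Proteins that are secreted or inserted into membranes enter the ER through the SEC61 channel, are folded there by chaperones such as BiP (Hspa5) and by disulfide isomerases, and are passed to the proteasome by the ERAD machinery when they do not fold. When unfolded protein accumulates, IRE1α (Ern1), ATF6 and PERK (Eif2ak3) start the unfolded protein response: IRE1α splices Xbp1 mRNA into the form that encodes an active transcription factor, ATF6 is cut to release another, and PERK slows translation. AT2 pneumocytes are secretory cells that make surfactant, and surfactant protein C is made in the ER as a membrane-bound precursor. The deposited values sum the transcripts of a gene, so spliced and unspliced Xbp1 mRNA, and the activity of the sensor proteins, were not measured.

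Values are read estimates that had been divided by library factors, called normalized counts here. They summed to 16433820 to 20287296 in the libraries of the first table and to 7115753 to 9159567 in those of the second; depth in reads is unknown, so no interval for counting error is given. The tables were normalized separately, and no level is compared between them. All 10 AT2 markers were above 0 in every library. In the first table the labels of sex went against the Y-linked genes in both 12 week BRAF/PI3K libraries: replicate 1, labelled male, had a sum of 995 normalized counts of these genes (539 to 1022 in the 7 other libraries labelled female), and replicate 2, labelled female, had 9038 (5872 to 7912 in the 5 other libraries labelled male). Both belong to the same group, so that only the fits with sex as a factor depend on these labels. Some libraries stood apart in their cell type markers: both BRAF/PI3K libraries of 2 weeks and BRAF/PI3K replicate 1 of 6 weeks had 38864, 21173 and 82500 normalized counts of Sftpc (at least 164859 in the rest) and 58643, 60069 and 84651 of 10 endothelial markers together (at most 41444 in the others). Of the plasma cell markers, Mzb1, Tnfrsf17 and Igha were at 0 in at least 1 library of the first table. As a check of the labels, Ppargc1a was at 75.8, 170.2, 155, 199.5 and 561 in the Het and at 72.7, 38.0, 51.6 and 124 in the Null libraries, a log2 difference of -1.51 (SE 0.50) with adjusted p = 0.978 in limma, with overlapping ranges. The HR allele changes the Pik3ca protein and not necessarily its mRNA, so the level of Pik3ca does not check that label.

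Promoters of several of these genes hold the ER stress response element (ERSE), to which ATF6 is known to bind, and 4 are shown because this element and its second form were found more often among these genes than in promoters at large. RefSeq entries (GRCm38.p6) for 29 of the 35 genes were searched on both strands over 250 bases before and 50 after the start site. ERSE, spelled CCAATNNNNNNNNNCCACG, was found for 9 of the 29 genes (31%), against 37 of all 27025 genes (0.137%) and 39 of all 32851 promoters (0.119%): Hspa5, Hsp90b1, Calr, Canx, Pdia6, Dnajc3, Creld2, Syvn1 and Derl3. The related ERSE-II, ATTGG and CCACG with 1 unfixed base between them, was found for Dnajb11 and Herpud1 (2 of 29, against 0.0444% of all genes), and the letters TGACGTG of the UPR element for Hspa5 alone (1 of 29, against 2.22%). ERSE and ERSE-II both hold CCACG and a CCAAT box on either strand, but none of the 29 genes had both. Such a match describes letters and not binding. Below are the 250 bases before the start site for 4 genes, 5′ to 3′ on the gene's strand, with the fixed letters of the element in capitals: Hspa5 with 1 ERSE at bases -65 to -47, Hsp90b1 with 2, at -212 to -194 and, reversed, at -107 to -89, Derl3 with 1 reversed at -156 to -138, and Herpud1 with an ERSE-II at -52 to -42.
Hspa5, chr2:34771840-34772089, plus strand: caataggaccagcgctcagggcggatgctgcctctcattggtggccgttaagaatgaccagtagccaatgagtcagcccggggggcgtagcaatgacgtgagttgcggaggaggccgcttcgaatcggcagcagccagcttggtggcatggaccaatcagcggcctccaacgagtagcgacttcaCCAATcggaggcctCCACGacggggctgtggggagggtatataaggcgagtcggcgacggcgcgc
Hsp90b1, chr10:86705445-86705694, minus strand: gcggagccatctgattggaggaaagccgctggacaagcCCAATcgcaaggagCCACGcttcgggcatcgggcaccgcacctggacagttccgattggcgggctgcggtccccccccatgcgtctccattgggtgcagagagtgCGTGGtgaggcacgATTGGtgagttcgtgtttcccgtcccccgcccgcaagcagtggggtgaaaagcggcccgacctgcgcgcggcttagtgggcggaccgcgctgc
Derl3, chr10:75893148-75893397, plus strand: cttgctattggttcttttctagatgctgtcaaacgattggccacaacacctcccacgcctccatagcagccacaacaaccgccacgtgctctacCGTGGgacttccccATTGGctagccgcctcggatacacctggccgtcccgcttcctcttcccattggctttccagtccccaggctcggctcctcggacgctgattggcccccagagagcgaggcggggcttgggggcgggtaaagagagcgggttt
Herpud1, chr8:94386179-94386428, plus strand: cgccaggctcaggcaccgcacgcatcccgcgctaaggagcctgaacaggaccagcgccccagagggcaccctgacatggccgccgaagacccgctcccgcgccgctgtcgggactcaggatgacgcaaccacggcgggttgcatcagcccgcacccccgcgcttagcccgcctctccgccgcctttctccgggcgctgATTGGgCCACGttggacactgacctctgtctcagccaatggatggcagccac

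BiP, encoded by Hspa5, is the HSP70 of the ER and GRP94, encoded by Hsp90b1, its HSP90. Hspa5 (normalized counts, replicates in order) was at 15441 in the 2 week BRAF library, at 27014, 25301 and 17905 at 6 weeks and at 25358 and 32859 at 12 weeks, and at 9138 and 12062, then 17248, 28325, 22926 and 18794, then 13546 and 18909.9 in the BRAF/PI3K libraries of the same weeks. The BRAF/PI3K libraries overlapped with the BRAF libraries over all weeks, and at 2 and at 12 weeks both BRAF/PI3K libraries were below every BRAF library of that week. Hsp90b1 was at 23329 in the 2 week BRAF library, at 53233, 46631 and 29696 at 6 weeks and at 34623 and 58888 at 12 weeks, and at 26354 and 27256, then 35821, 54756, 44129.9 and 38987, then 38036 and 41981 in the BRAF/PI3K libraries of the same weeks. All 3 libraries of 2 weeks were below all later ones for this gene, whatever the genotype. Dnajb9, which encodes the BiP cochaperone ERdj4, was at 1255 in the 2 week BRAF library, at 1423, 1347 and 1259.7 at 6 weeks and at 1245 and 2545 at 12 weeks, and at 1203 and 896, then 1865, 1734, 1161 and 1341, then 897 and 1654 in the BRAF/PI3K libraries of the same weeks. Its highest value was that of 1 BRAF library of 12 weeks, and the genotypes overlapped. Of Dnajb9, 10.8% of its 31-base words are also found in other genes, most of all Gm6568, so that its reads could have been split. Sdf2l1, part of a complex with ER cochaperones, was at 108 in the 2 week BRAF library, at 115, 139 and 104.4 at 6 weeks and at 89.5 and 118 at 12 weeks, and at 90.3 and 32.2, then 101, 189, 107 and 73.0, then 130.0 and 175 in the BRAF/PI3K libraries of the same weeks. Among the 14 libraries, 1 of the BRAF/PI3K libraries of 2 weeks was the lowest. Creld2, a gene induced by ER stress, was at 225 in the 2 week BRAF library, at 175, 336 and 127 at 6 weeks and at 369.7 and 594 at 12 weeks, and at 247 and 309, then 323, 371, 268 and 186, then 209.5 and 277 in the BRAF/PI3K libraries of the same weeks. At 12 weeks both BRAF/PI3K libraries lay below both BRAF libraries, whereas the genotypes overlapped at 6 weeks. Over all 14 libraries the other chaperone genes ranged as follows: Dnajb11 1096 to 2487 (ERdj3), Dnajc3 4234 to 6752 (p58IPK), Manf 238 to 585 (a secreted factor that also binds BiP) and Hyou1 1016 to 3624 (GRP170, a nucleotide exchange factor for BiP).

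Calreticulin (Calr) and calnexin (Canx) are lectins that hold glycoproteins in the folding cycle, and the disulfide isomerases Pdia3, Pdia4, Pdia6 and P4hb form and exchange disulfide bonds. Calr was at 3205 in the 2 week BRAF library, at 4799, 3471 and 2696 at 6 weeks and at 4219.8 and 5465 at 12 weeks, and at 2093 and 1800.3, then 2325, 4535, 3449 and 2214, then 3448 and 2761 in the BRAF/PI3K libraries of the same weeks. Of the 8 BRAF/PI3K libraries, 4 were below every BRAF library and none was above all of them. Pdia3, whose product ERp57 works with both lectins, was at 6376 in the 2 week BRAF library, at 15597, 11849.7 and 9747 at 6 weeks and at 12601 and 15864 at 12 weeks, and at 7826 and 6493, then 7214, 10971, 10690.1 and 10554, then 8725 and 12559 in the BRAF/PI3K libraries of the same weeks. The libraries of 2 weeks were among the lowest 4, with BRAF/PI3K replicate 1 of 6 weeks as the remaining one. Pdia4 was at 1892 in the 2 week BRAF library, at 3107, 2835 and 2429.6 at 6 weeks and at 3046 and 4706 at 12 weeks, and at 841 and 1271, then 1513, 4154, 2527 and 2503, then 1879 and 2933 in the BRAF/PI3K libraries of the same weeks. The lowest 3 values were those of the BRAF/PI3K libraries that were also low in Sftpc. Pdia6 was at 2106 in the 2 week BRAF library, at 3314, 2884 and 1226 at 6 weeks and at 2621 and 3615 at 12 weeks, and at 1543 and 1017, then 1679, 4001, 2828 and 2078, then 1915 and 2386 in the BRAF/PI3K libraries of the same weeks. A value from the BRAF/PI3K group of 6 weeks was the highest, and the ranges overlapped. P4hb, which is also a subunit of collagen prolyl 4-hydroxylase, was at 8769 in the 2 week BRAF library, at 12862, 11108 and 7748 at 6 weeks and at 10481 and 15488 at 12 weeks, and at 5815 and 4192, then 4694, 12951, 11079.5 and 9020.2, then 9453 and 13946 in the BRAF/PI3K libraries of the same weeks. Its lowest 3 values belonged to the 3 libraries lowest in Sftpc, and the highest to a BRAF library of 12 weeks. The remaining lectin, Canx, ranged from 8755 to 15486.

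Of the sensors, Atf6 ran against most of the set. Atf6 was at 3759 in the 2 week BRAF library, at 3275, 3739 and 4074 at 6 weeks and at 3737 and 2837 at 12 weeks, and at 4290.1 and 5560.4, then 4755, 3379, 3609 and 3374, then 2528 and 3487 in the BRAF/PI3K libraries of the same weeks. Its highest 3 values were in the BRAF/PI3K libraries with the lowest Sftpc. Ern1 was at 2274 in the 2 week BRAF library, at 2945, 2214 and 1821 at 6 weeks and at 2246 and 2979 at 12 weeks, and at 1095 and 1773, then 1672, 2417, 3438 and 2197, then 2306 and 1945 in the BRAF/PI3K libraries of the same weeks. Both the lowest and the highest value were BRAF/PI3K libraries, of 2 and of 6 weeks. Eif2ak3 was at 447 in the 2 week BRAF library, at 281, 332 and 262 at 6 weeks and at 141 and 554 at 12 weeks, and at 348 and 415, then 421, 381, 592 and 217, then 550.1 and 394 in the BRAF/PI3K libraries of the same weeks. The 2 BRAF libraries of 12 weeks spanned almost the whole range, so that no difference could be seen against this spread. Xbp1 was at 2849.6 in the 2 week BRAF library, at 4553, 3062 and 2520.3 at 6 weeks and at 3155 and 4063 at 12 weeks, and at 4125 and 2354, then 3863, 3763, 2352 and 3121, then 3662 and 3160.4 in the BRAF/PI3K libraries of the same weeks. The genotypes overlapped at 2, 6 and 12 weeks. Wfs1, encoding the ER membrane protein wolframin, was at 511 in the 2 week BRAF library, at 521, 322 and 457 at 6 weeks and at 537 and 441 at 12 weeks, and at 663 and 506, then 538, 333, 386 and 333, then 1099 and 781 in the BRAF/PI3K libraries of the same weeks. The 2 BRAF/PI3K libraries of 12 weeks had the highest values of the 14.

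SEL1L and the ubiquitin ligase HRD1 (Syvn1) form the core of an ERAD complex, derlins sit beside it in the membrane, EDEM proteins and OS9 handle the glycans of misfolded proteins, and Herpud1 is a scaffold of the complex. Sel1l was at 7940.5 in the 2 week BRAF library, at 13332, 9469 and 5526 at 6 weeks and at 7964 and 12879.7 at 12 weeks, and at 3907 and 4415, then 5984, 12096, 7118 and 8179, then 5749 and 8626 in the BRAF/PI3K libraries of the same weeks. Both BRAF/PI3K libraries of 2 weeks were the lowest of all. Herpud1 was at 949.7 in the 2 week BRAF library, at 889.9, 995 and 743 at 6 weeks and at 1062 and 1016 at 12 weeks, and at 823 and 488, then 997, 1111, 579.7 and 636, then 867 and 900.2 in the BRAF/PI3K libraries of the same weeks. The lowest and the highest values were both BRAF/PI3K libraries. Derl2 was at 1216 in the 2 week BRAF library, at 1789.7, 1262 and 1785 at 6 weeks and at 1633 and 1686 at 12 weeks, and at 4533 and 1382, then 1015, 2084, 1389 and 1059.7, then 1564 and 1465 in the BRAF/PI3K libraries of the same weeks. A single BRAF/PI3K library of 2 weeks stood far above the rest. Derl3 was at 6.38 in the 2 week BRAF library, at 37.5, 8.98 and 36.0 at 6 weeks and at 11.4 and 31.4 at 12 weeks, and at 0 and 2.68, then 15.3, 62.3, 8.28 and 87.0, then 3.94 and 23.5 in the BRAF/PI3K libraries of the same weeks. It was listed at 0 in 1 library and stayed in single digits in all 3 libraries of 2 weeks, so its fold changes rest on low values. Edem2 was at 152 in the 2 week BRAF library, at 336, 235 and 314 at 6 weeks and at 399 and 334 at 12 weeks, and at 515 and 239.6, then 234, 373, 402 and 349.7, then 239 and 449 in the BRAF/PI3K libraries of the same weeks. The BRAF library of 2 weeks was the lowest, and the ranges overlapped. Over the 14 libraries, Edem1 1189 to 3441, Syvn1 382 to 1460.1, Derl1 526 to 1490.1 and Os9 645 to 1643 were the ranges of the other ERAD genes.

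SEC61α, β and γ make up the channel, and the SSR proteins form the translocon-associated TRAP complex. Sec61a1 was at 1664 in the 2 week BRAF library, at 2845, 2547 and 2284 at 6 weeks and at 2475 and 3349 at 12 weeks, and at 2414 and 1124, then 1242, 3720.1, 2247 and 2354, then 2133 and 2654 in the BRAF/PI3K libraries of the same weeks. The lowest 2 values were in BRAF/PI3K libraries of 2 and 6 weeks. Sec61b was at 68.3 in the 2 week BRAF library, at 87.4, 87.9 and 116 at 6 weeks and at 58.8 and 116 at 12 weeks, and at 157 and 50.6, then 43.7, 93.5, 57.7 and 66.7, then 89.7 and 108 in the BRAF/PI3K libraries of the same weeks. Sec61b shares 23.5% of its 31-base words with Gm10320 or other genes, and Sec61g 15.7%, so that their values are uncertain. Ssr1 was at 3570.1 in the 2 week BRAF library, at 4995, 4941 and 4168 at 6 weeks and at 4686 and 4846 at 12 weeks, and at 6689 and 5733, then 6001, 5348, 4673 and 4433, then 3093 and 4590.4 in the BRAF/PI3K libraries of the same weeks. At 2 weeks both BRAF/PI3K libraries were above the BRAF library. The ranges of the others were Sec61g 31.5 to 302, Ssr2 308 to 839.5 and Ssr3 6164 to 10528. Together the 35 genes made up 0.594% to 1.12% of the normalized counts of a library.

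**Figure D1:**
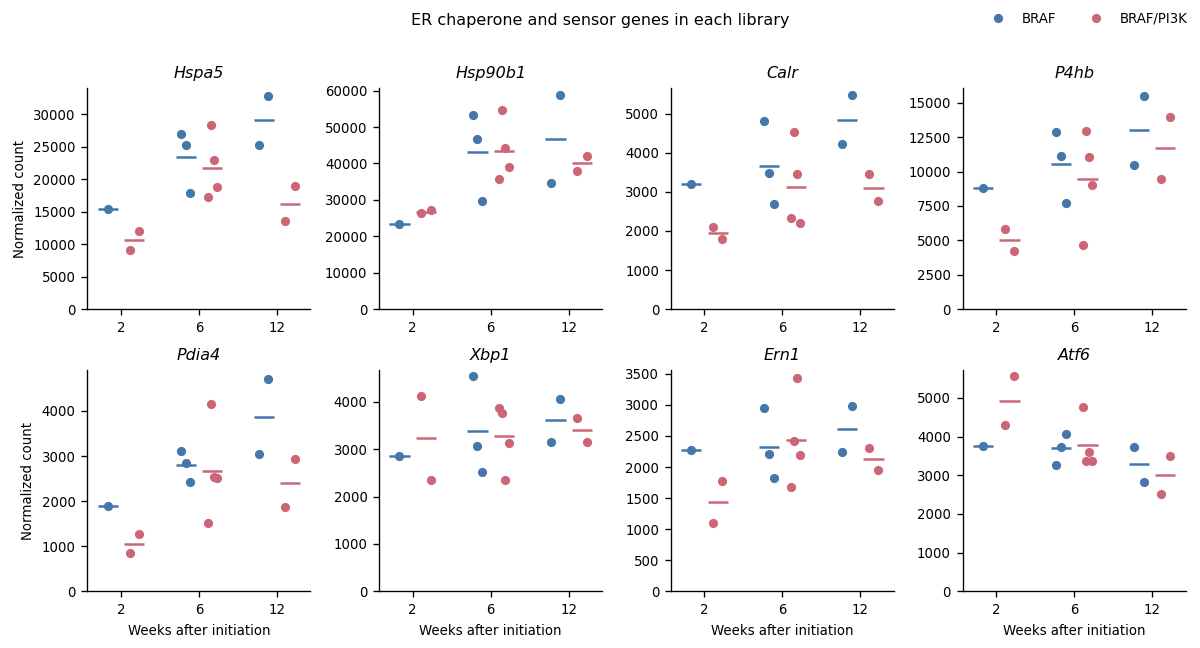
Normalized counts (y axis, from 0) of 8 of the genes in each library of the first table against weeks after initiation (x axis), with blue points for BRAF and red points for BRAF/PI3K and a line at each group mean. At 6 weeks the genotypes overlap for all 8 genes, and the points of 2 weeks are low for Hspa5, P4hb and Pdia4 and high for Atf6 in BRAF/PI3K.

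The first comparison asked whether activated PI3Kα altered these genes in BRAFV600E tumors, with the weeks pooled as in the study's own design. No member differed between genotypes at an adjusted p under 0.05 (limma on log2(value + 1), two-sided, Benjamini-Hochberg over the 17558 genes), where 4 of all genes did (0.0228% called). At an unadjusted p under 0.05, 0 members were higher and 1 was lower, against 3.46% and 3.38% of all genes. That member was Calr at -0.51 (SE 0.22) on the log2 scale, with adjusted p = 0.689 in limma, and an exact permutation p of 0.0493 (two-sided). The lowest values were those of Derl3 at -0.66 (SE 0.90), Pdia4 at -0.55 (SE 0.31) and Calr, and the highest those of Eif2ak3 at 0.37 (SE 0.29), Edem2 at 0.25 (SE 0.26) and Wfs1 at 0.22 (SE 0.27). All 6 lectin and disulfide isomerase genes were below 0 (median -0.36), without passing the test. Of the 35 genes, 24 were below 0 and 11 above (51.8% of all genes were above), with a median of -0.08 beside 0.02 over all genes, and no gene had all its BRAF/PI3K libraries above or below all BRAF libraries (0.0854% and 0.125% of all genes did). The count above 0 was 20 with sex as a factor (median 0.07), and no member then had an unadjusted p under 0.05. The count was 18 without BRAF replicate 2 of 12 weeks, but 6 without BRAF replicate 3 of 6 weeks (median -0.20). Members lower at an unadjusted p under 0.05 were 4 without that library or without BRAF/PI3K replicate 2 of 6 weeks, 3 without the BRAF library of 2 weeks, and 0 to 2 without 1 of the other libraries. Of the markers of cell types, all 10 of AT2 were below 0 (median -1.04) and all 10 endothelial ones above 0 (median 0.91). At an unadjusted p under 0.05 stood 2 of each of these lists. Of 10 macrophage markers 8 were above 0 (median 0.66), and all 6 erythroid markers tested were below 0 (median -0.93). Of 8 plasma cell markers tested 7 were below 0 (median -0.77). None of these markers was called, and their part in the values above was not tested. In RNA from sorted pools, fewer cells of a type and less RNA per cell cannot be told apart.

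**Figure D2:**
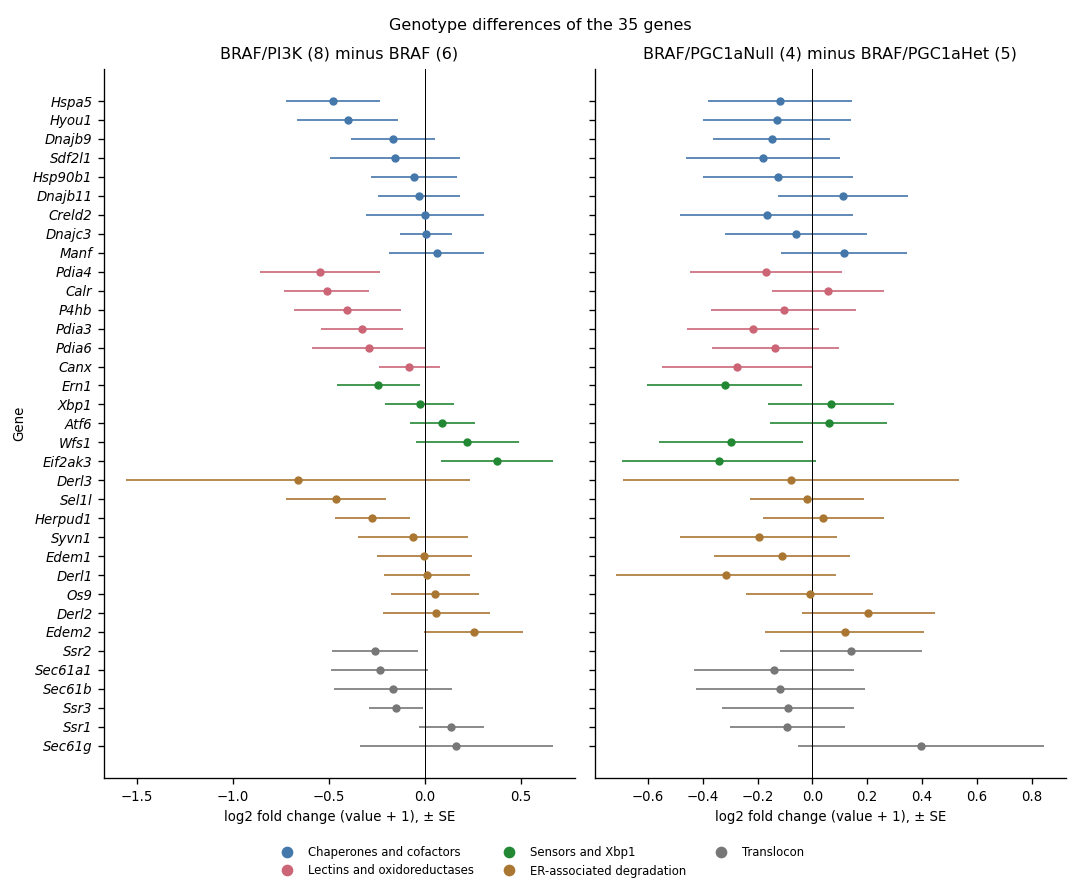
Log2 fold change on log2(value + 1) (x axis, bars: 1 SE) of each of the 35 genes (y axis), coloured by role, for BRAF/PI3K minus BRAF (8 against 6 libraries, left) and Null minus Het (4 against 5 libraries, right). No gene passed an adjusted p under 0.05 in either panel, and the 6 lectin and disulfide isomerase genes lie below 0 on the left.

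Within weeks, likewise, no member passed. At 2 weeks (1 BRAF and 2 BRAF/PI3K libraries, the spread taken from all groups) 0.0171% of genes were called and no member; Ssr1 was the single member at an unadjusted p under 0.05, with 0.79 (SE 0.32) and adjusted p = 0.313 in limma, and none was lower at that level, where 6.93% of genes were higher and 6.57% lower. In those libraries all 10 endothelial markers were higher in BRAF/PI3K at an unadjusted p under 0.05 (median 2.95), with a summed level of 58643 and 60069 beside 6818. All 10 AT2 markers were lower, 9 of them at that level, and what these markers contribute to the Ssr1 value was not tested. Sex and genotype coincided at 2 weeks, and with sex as a factor the members' median was 0.13 in place of -0.21. Without that factor, the median was -0.26 without BRAF/PI3K replicate 1 of 2 weeks and -0.06 without replicate 2. The share of all genes called at 2 weeks moved widely when single libraries were left out. At 6 weeks, with 3 against 4 libraries, 0.0228% of genes and no member were called, and no member had an unadjusted p under 0.05 in either direction in limma (2.24% of genes were higher and 1.99% lower). The lowest log2 values were Sec61b at -0.60 (SE 0.46), Pdia3 at -0.32 (SE 0.23) and Derl2 at -0.26 (SE 0.38), the highest Creld2 at 0.51 (SE 0.38), Eif2ak3 at 0.38 (SE 0.45) and Derl3 at 0.32 (SE 0.98), and for no member did the genotypes separate (2.63% of all genes were wholly higher and 2.6% wholly lower). At 12 weeks (2 against 2) no member was called beside 0.0114% of genes; at an unadjusted p under 0.05 (2.18% of genes higher, 1.58% lower) stood Wfs1 at 0.93 (SE 0.37) and Hspa5 at -0.85 (SE 0.31), both with an adjusted p of 1 in limma. With 2 libraries in a group, the values depend on single libraries. The members' median, -0.21 as fitted, was -0.49 without BRAF replicate 1 and -0.06 without BRAF replicate 2. It was -0.18 without BRAF/PI3K replicate 1 and -0.32 without BRAF/PI3K replicate 2. In the same comparison 6 of 8 plasma cell markers tested were below 0 (median -1.81), 3 of them at an unadjusted p under 0.05, with sums of 7027 and 8880 in BRAF and 4181 and 7381 in BRAF/PI3K. Of 10 macrophage markers 8 were above 0 (median 0.87), although their sum was lower, at 100798 and 125769 in BRAF/PI3K and 180585 and 223436 in BRAF. Of 20 heat shock genes 18 were below 0, 4 at an unadjusted p under 0.05. None of these was called, and their part in the values was not tested. The genotype effect at 12 weeks minus that at 6 weeks, tested as an interaction, was called for no gene (0%); among members it had an unadjusted p under 0.05 (1.54% of genes above 0, 1.33% below) for Wfs1, at 1.05 (SE 0.47), and Creld2, at -1.46 (SE 0.63), both with an adjusted p of 1 in limma.

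Between weeks no member passed the adjusted threshold without a further covariate. From 2 to 6 weeks, averaged over both genotypes, 26 of 35 genes were above 0 (51.9% of all genes; median 0.31, beside 0.02 over all genes) and 0 members and 7 of all genes (0.0399%) were called. All 10 AT2 markers were also higher at 6 weeks at an unadjusted p under 0.05 (median 1.29), as were 4 of 10 club cell markers, and 8 of 10 fibroblast markers were below 0; none of these was called, and their part in the values was not tested. At an unadjusted p under 0.05, 6 members were higher and 0 lower, where 5.89% and 4.47% of all genes were. Hspa5 was at 0.80 (SE 0.22) on the log2 scale, with adjusted p = 0.257 in limma. Hsp90b1 was at 0.76 (SE 0.23), Pdia3 at 0.69 (SE 0.22), Pdia4 at 0.92 (SE 0.31), Dnajb11 at 0.57 (SE 0.24) and Derl3 at 2.85 (SE 0.93), with adjusted p from 0.295 to 0.446 in limma. With a score of the endothelial markers as a covariate 391 of all genes were called in place of 7, and 3 of the members among them: Hspa5 at 0.85 (adjusted p = 0.0404), Hsp90b1 at 0.84 (adjusted p = 0.0240) and Pdia3 at 0.75 (adjusted p = 0.0479). The 2 week groups hold 3 libraries in all, 2 of them those with the lowest Sftpc. Without that score, the count of 7 genes was itself unstable. It was 106 without BRAF/PI3K replicate 1 of 6 weeks and 0 without BRAF replicate 1 of 6 weeks, with no member called. From 6 to 12 weeks 0 members were called (0.0114% of genes), and Wfs1 alone had an unadjusted p under 0.05 (2.59% of genes higher, 3.4% lower), at 0.72 (SE 0.23) with adjusted p = 0.830 in limma. Of 10 macrophage markers 9 were above 0 (median 1.22), 6 of them at an unadjusted p under 0.05. All 10 AT2 markers were above 0 (median 0.67) and 9 of 10 endothelial ones below 0 (median -0.88). None of these markers was called, and their part in the values was not tested.

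Of the main tests in the first table, the one against Sftpc called members. Sftpc was at 197371 in the 2 week BRAF library, at 392699.7, 237836 and 164859 at 6 weeks and at 251589 and 378088 at 12 weeks, and at 38864 and 21173, then 82500.1, 250127, 195707 and 221687, then 256566 and 383005 in the BRAF/PI3K libraries of the same weeks. The low end was BRAF/PI3K at 2 weeks and 1 library of 6 weeks. By the slope of log2(value + 1) on log2(Sftpc + 1) in limma, 12 of the 35 genes rose with Sftpc and 1 fell at an adjusted p under 0.05, where 16.4% of all genes were called, 7.6% rising and 8.81% falling. In all, 30 of 35 slopes were above 0 (50.9% of all genes), with a median of 0.15 beside 0.0049 over all genes. A slope is the log2 change of a gene per log2 unit of Sftpc.

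Of the 6 disulfide isomerases and lectins 5 rose: Pdia4 had a slope of 0.45 (SE 0.08, adjusted p = 0.00149), P4hb of 0.42 (SE 0.06, adjusted p = 9.78e-05), Pdia6 of 0.36 (SE 0.08, adjusted p = 0.00779), Calr of 0.30 (SE 0.07, adjusted p = 0.00877) and Pdia3 of 0.26 (SE 0.06, adjusted p = 0.0114). Canx, the exception, was at 0.02 (SE 0.06). Of the 9 chaperones 3 rose, namely Sdf2l1 with 0.36 (SE 0.11, adjusted p = 0.0294), Hspa5 with 0.31 (SE 0.07, adjusted p = 0.00925) and Hsp90b1 with 0.22 (SE 0.07, adjusted p = 0.0354). ERAD gave 2 of 9, Sel1l with 0.36 (SE 0.07, adjusted p = 0.00303) and Derl3 with 0.91 (SE 0.29, adjusted p = 0.0451), and the channel 1 of 6, Sec61a1 with 0.27 (SE 0.08, adjusted p = 0.0264). Among the sensors Ern1 rose, with 0.23 (SE 0.07, adjusted p = 0.0362), and Atf6 fell, with -0.19 (SE 0.05, adjusted p = 0.0143). Xbp1 did not pass (0.07 (SE 0.07), adjusted p = 0.578 in limma), nor did Eif2ak3 (-0.04 (SE 0.12), adjusted p = 0.882) or Wfs1 (-0.03 (SE 0.11), adjusted p = 0.894). ERSE was in the promoters of 5 of the 11 rising genes with an entry and of 4 of the other 18; with ERSE-II counted too it was 5 of 11 and 6 of 18.

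Many of these calls were lost in other fits. All 10 AT2 markers rose with Sftpc, Sftpc itself among them, while 8 of 10 endothelial and 6 of 10 fibroblast markers fell, and the summed endothelial markers ran from 5879 to 84651. With the endothelial score as a covariate 1 of the 13 calls was kept, P4hb at 0.37 (adjusted p = 0.0201), while calls over all genes fell from 2880 to 313; 27 slopes were above 0, with a median of 0.12. Without the 2 BRAF/PI3K libraries of 2 weeks 3 were kept, P4hb at 0.69 (adjusted p = 0.00206), Pdia3 at 0.49 (adjusted p = 0.0458) and Sec61a1 at 0.54 (adjusted p = 0.0387), each steeper than over all libraries. All-gene calls then were 853, and 32 of the 35 slopes were above 0 with a median of 0.28. Without replicate 2 of them alone 7 rose and none fell (2439 of all genes called), without replicate 1 alone 8 rose and 1 fell (1768), and without BRAF replicate 2 of 12 weeks 8 rose and 1 fell (2278). Plasma cells, which are rich in these chaperones, have 3 of their 10 markers at 0 in some of these libraries, and the 10 together summed to 2905 to 8880; 1 of 8 tested rose with Sftpc and none fell. The part of other cells in the slopes was otherwise not tested. As Pearson correlations of log2 values over the 14 libraries, 9 members, among 2177 of the 17557 genes tested besides Sftpc, had an adjusted permutation p under 0.05 (100000 permutations, two-sided). P4hb had the highest r, 0.915 (permutation p = 4e-05, adjusted p = 0.0039, Spearman rho 0.855), and kept an r of 0.935 without the 2 libraries farthest from the median of Sftpc, which were both BRAF/PI3K libraries of 2 weeks. Pdia4 had 0.842 (adjusted permutation p = 0.00858, rho 0.780, 0.720 without those 2) and Sel1l 0.814 (adjusted permutation p = 0.00633, rho 0.793, 0.687 without them). The lowest were Atf6 with -0.817 (adjusted permutation p = 0.0112, rho -0.842, -0.720 without them), Ssr1 with -0.544 (adjusted permutation p = 0.162, -0.190 without them) and Derl2 with -0.240 (adjusted permutation p = 0.580, rho 0.266, 0.553 without them). The negative r of Derl2 was thus not kept without those 2 libraries or by rank. In a single BRAF/PI3K library of 2 weeks Derl2 stood far above the rest. Within a genotype or week the highest and the lowest gene over all 14 libraries were as follows: P4hb had r = 0.908 over the 8 BRAF/PI3K libraries, 0.950 over the 6 BRAF libraries and 0.928 over the 7 libraries of 6 weeks, and Atf6 -0.837, -0.897 and -0.928. Others were higher within a subset: over the 6 BRAF libraries Xbp1 had the highest r of the 35 genes, 0.987, against 0.134 over the 8 BRAF/PI3K libraries, and over the 7 libraries of 6 weeks Pdia3 had the highest, 0.977. These were picked after their values were seen, and the difference between genotypes was not tested.

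**Figure D3:**
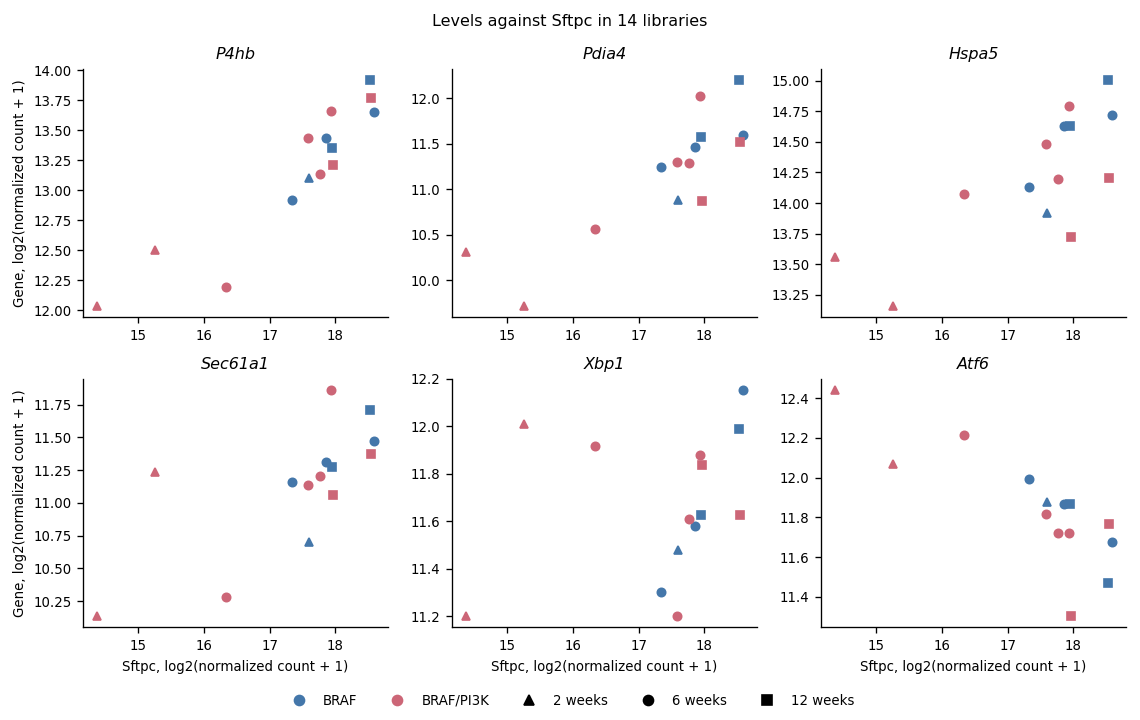
Level of 6 genes (y axis) against Sftpc (x axis), both as log2(normalized count + 1), in the 14 libraries of the first table, with colour for genotype and shape for week. P4hb and Pdia4 are highest where Sftpc is high, Atf6 is highest in the libraries with the lowest Sftpc, and for Xbp1 r was 0.987 over the BRAF points and 0.134 over the BRAF/PI3K points.

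**Figure D4:**
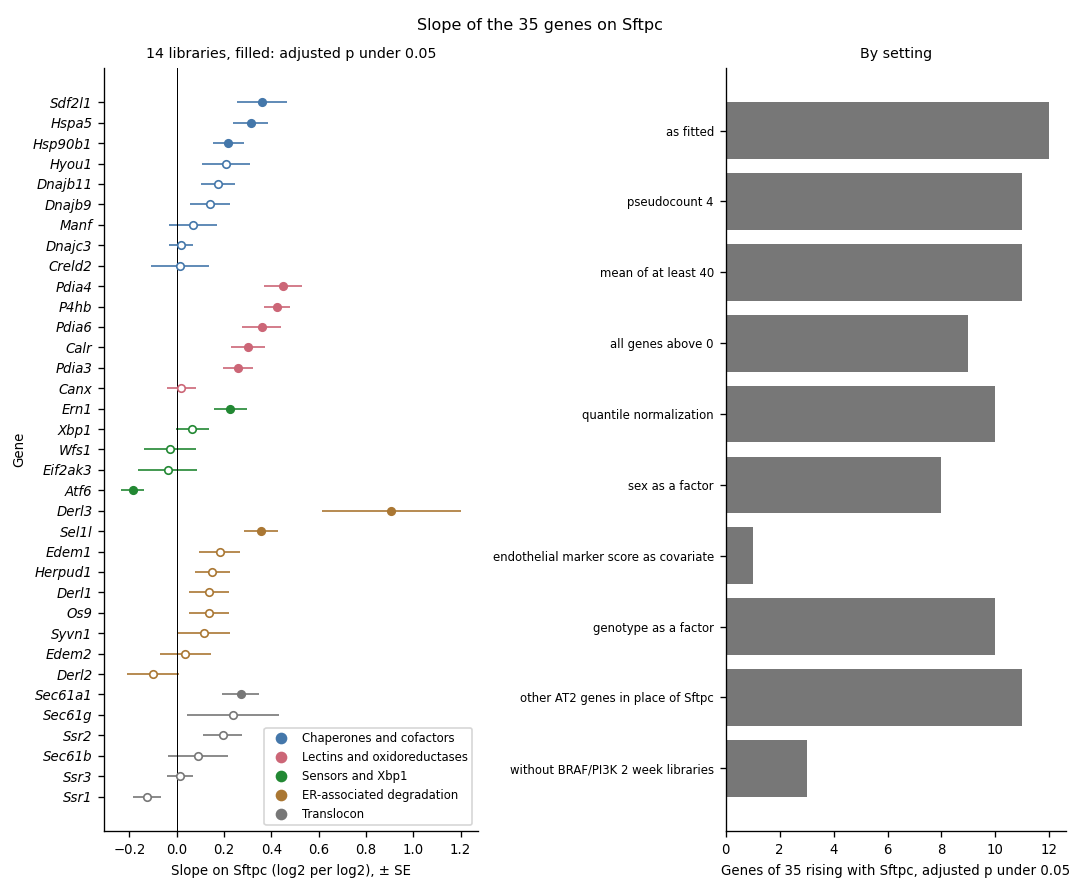
Slope on Sftpc (x axis, log2 per log2, bars: 1 SE) of the 35 genes (left, filled where the adjusted p is under 0.05), and the number of genes rising at that level under the ways of fitting named on the axis (right, bars from 0). As fitted 12 genes rose, and 1 and 3 did with the endothelial score and without the BRAF/PI3K libraries of 2 weeks.

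Other genes of the pathway, from lists that did not include the 35, were called in both directions on Sftpc, to be read against the 7.6% of all genes that rose and the 8.81% that fell. Of 16 genes of the PERK branch 2 rose, Nfe2l2 with a slope of 0.34 and Tnfrsf10b with 0.39, and 2 fell, the phosphatase subunit Ppp1r15a with -0.61 and Ddit3 (CHOP) with -0.45. Of 14 other regulators tested, Creb3l1 (1.04) and Tmbim6 (0.24) rose, and Creb3 (-0.32) and Creb3l2 (-0.18) fell. Among 43 further folding genes 4 rose, Nucb2 (0.52), Prdx4 (0.39), Erp29 (0.24) and Txndc11 (0.24), and 4 fell, Fkbp9 (-0.42), Fkbp7 (-0.41), Qsox1 (-0.34) and Mia3 (-0.25). A single gene of 33 in ERAD rose, the ligase Rnf5 with 0.51. In translocation, signal cleavage and N-glycosylation, of 40 genes tested, Sec11c (0.49), Tusc3 (0.24), Spcs3 (0.24) and Srp72 (0.18) rose and Tram2 (-0.41) and Emc7 (-0.25) fell. ER export gave 2 of 24, Mcfd2 (0.31) and its partner Lman1 (0.18), and the heat shock genes of cytosol and mitochondria, listed for comparison, gave 3 of 20, with Hspa9 (0.24) and Hsp90ab1 (0.19) rising and Hspb1 (-0.67) falling. The medians of these lists lay between -0.04 and 0.18, beside 0.15 for the 35 genes. Of the 28 calls in these lists, 3 were kept with the endothelial score (Creb3l1, Nucb2 and Rnf5) and 1, Nucb2, without both BRAF/PI3K libraries of 2 weeks.

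Between genotypes no gene of these lists was called. For BRAF/PI3K minus BRAF, the highest and the lowest log2 values were Bbc3 0.97 (SE 0.74) and Tnfrsf10b -0.36 (SE 0.28) in the PERK branch, Creb3 0.65 (SE 0.25) and Creb3l1 -1.78 (SE 0.54) in the regulators, Fkbp7 0.73 (SE 0.35) and Fkbp10 -0.55 (SE 0.53) in the folding genes, Ubxn8 0.44 (SE 0.25) and Erlin1 -0.60 (SE 0.35) in ERAD. They were Tram2 0.53 (SE 0.31) and Srp9 -0.58 (SE 0.21) in translocation, Kdelr1 0.23 (SE 0.20) and Sec24d -0.46 (SE 0.22) in ER export, Hsf1 0.22 (SE 0.21) and Hsph1 -1.12 (SE 0.46) in the heat shock genes. The heat shock list stood lowest, with 16 of 20 genes below 0 (median -0.38) and 6 of them at an unadjusted p under 0.05, against 3.38% of all genes. For Null minus Het the corresponding genes were Bbc3 0.74 (SE 0.55) and Chac1 -0.55 (SE 0.47) in the PERK branch, Mbtps2 0.18 (SE 0.25) and Creb3l4 -0.92 (SE 0.71) in the regulators, Dnajc1 0.49 (SE 0.23) and Fkbp7 -1.35 (SE 0.63) in the folding genes, Ube2j1 0.38 (SE 0.27) and Tmub1 -1.30 (SE 0.70) in ERAD. The other lists had Emc6 0.39 (SE 0.28) and Emc10 -0.61 (SE 0.24) in translocation, Tmed3 0.23 (SE 0.29) and Kdelr3 -0.99 (SE 0.40) in ER export, Dnajb1 0.23 (SE 0.30) and Cryab -0.33 (SE 0.23) in the heat shock genes. These were values of single genes at the ends of a list, and every adjusted p was above 0.05 in limma.

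The second table asked whether the same set differed at 12 weeks between tumors with 2 mutant copies of Ppargc1a and tumors with 1. Its product PGC1α is a coactivator of mitochondrial genes. No library had 2 intact copies, so that loss of both copies against none was not tested. No member and no gene at all was called for Null minus Het (0%), and no member had an unadjusted p under 0.05 in either direction in limma, where 2.66% of genes were higher and 1.17% lower. The lowest log2 values were those of Eif2ak3 at -0.34 (SE 0.35), Ern1 at -0.32 (SE 0.28) and Derl1 at -0.32 (SE 0.40), and the highest those of Sec61g at 0.40 (SE 0.45), Derl2 at 0.20 (SE 0.24) and Ssr2 at 0.14 (SE 0.26). In all, 10 genes were above 0 and 25 below (51.1% of all genes were above; median -0.11, beside 0.01 over all genes), and for none did the genotypes separate (0.941% of genes were wholly higher and 0.459% wholly lower). Libraries of the 2 genotypes did separate in endothelial and club cell markers. The endothelial sum was 335 to 837 in Het and 1421 to 2131 in Null, with Cldn5 at 0 in some library and all 10 higher at an unadjusted p under 0.05. The club cell sum was 2062 to 3841 in Het and 5073 to 22366 in Null, with 6 of 10 higher at that level, and all 9 fibroblast markers tested were above 0; none of these markers was called. Of 7 plasma cell markers tested 6 were above 0 (median 1.53), 3 at an unadjusted p under 0.05, and their sum overlapped, at 3775 to 4592 in Het and 3467 to 9289 in Null, the highest in Null replicate 2. The part of these cells in the values was not tested. With the endothelial score as a covariate 34 of the 35 genes were above 0 (median 0.51) and none was called. The endothelial sums of the genotypes did not overlap, so that this fit could hardly tell the score from genotype. Without Null replicate 4, which had the lowest Sftpc of the table, 25 were above 0 (median 0.06), and without Null replicate 2 the count was 3 (median -0.25).

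Hspa5 (normalized counts) was at 6030.1, 6025, 10632, 9164 and 6872 in the Het libraries and at 6763, 9589, 7055 and 5074 in the Null libraries. Hsp90b1 was at 11551, 14829.5, 18683, 17329 and 14032 in the Het libraries and at 15172, 17749.7, 15722 and 8607 in the Null libraries. For both chaperones Null replicate 4 was the lowest of the 9 libraries. Dnajb9 was at 432, 495, 512, 602 and 565 in the Het libraries and at 502, 598, 354 and 448 in the Null libraries. Its lowest value was in Null replicate 3. Pdia3 was at 3961, 4177, 5328, 5450.1 and 3999 in the Het libraries and at 4439, 5391, 3697 and 2628 in the Null libraries. Null replicate 4 was again the lowest. Ern1 was at 724, 1020.3, 1452, 1169 and 943 in the Het libraries and at 749, 1207, 1043 and 499 in the Null libraries. Atf6 was at 927, 772, 1076, 1055 and 952 in the Het libraries and at 1286, 1027, 1023 and 709 in the Null libraries. Eif2ak3 was at 184, 102, 238, 282 and 115 in the Het libraries and at 129, 89.1, 141 and 202 in the Null libraries. Each of the 3 sensors overlapped between genotypes, and Eif2ak3 was the lowest in Null replicate 2. Xbp1 was at 1179, 1214, 1579, 1993 and 1376 in the Het libraries and at 1315, 2126, 1457 and 1270.4 in the Null libraries. Wfs1 was at 222, 225, 256, 263 and 176 in the Het libraries and at 260.2, 218, 159 and 127 in the Null libraries. Null replicate 2 was the highest for Xbp1, and Null replicate 4 the lowest for Wfs1. Derl1 was at 128, 371, 374, 439 and 337 in the Het libraries and at 177, 328, 421 and 146 in the Null libraries. Derl2 was at 395, 405, 506, 540.3 and 346 in the Het libraries and at 335, 672, 529 and 516 in the Null libraries. Derl3 was at 16.1, 22.9, 6.97, 40.01 and 26.0 in the Het libraries and at 14.5, 30.4, 31.8 and 7.84 in the Null libraries. Het replicate 1 was the lowest library for Derl1 and Het replicate 3 for Derl3. Herpud1 was at 334, 403, 484, 577 and 497 in the Het libraries and at 439, 551, 488 and 392 in the Null libraries. Sec61b was at 171, 153, 157, 144 and 87.8 in the Het libraries and at 137, 206, 102 and 93.5 in the Null libraries. Both overlapped, with Null replicate 2 the highest for Sec61b. Sec61g was at 47.0, 32.2, 57.2, 39.1 and 41.6 in the Het libraries and at 21.7, 97.6, 90.4 and 52.4 in the Null libraries. Ssr2 was at 327, 422, 562, 507 and 303 in the Het libraries and at 357, 659, 417 and 436 in the Null libraries. Null replicate 2 had the highest value of Sec61g and of Ssr2.

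In the remaining members of the second table the lowest and highest of the 9 libraries were as follows. Of the chaperones, these were Dnajb11 595 to 1235, Dnajc3 1139 to 2519, Sdf2l1 101 to 194, Creld2 88.5 to 242, Manf 298 to 561 and Hyou1 586 to 1423. Lectins and isomerases gave Calr 1541 to 2602, Canx 1528 to 3790.1, Pdia4 642 to 1540.5, Pdia6 1088 to 2193 and P4hb 3408 to 7265. In ERAD the ranges were Edem1 577 to 1173, Edem2 109.6 to 269, Sel1l 1458 to 2429, Syvn1 289.9 to 700.1 and Os9 548 to 956, and in the translocon Sec61a1 752 to 1671, Ssr1 979 to 1664 and Ssr3 1507 to 2721. Null replicate 2 or Null replicate 4 was an extreme for most of them.

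Sftpc itself was at 293046, 308783, 337889.8, 309428 and 275804 in the Het and at 348418, 342703, 252746 and 222448 in the Null libraries. Against it, no member and no gene passed (0%), and 8 members had a slope above 0 at an unadjusted p under 0.05 and 0 below in limma, where 5.46% and 2.73% of all genes did. That count of 8 rests on single libraries. It was 0 without Null replicate 4 (median slope 0.51 in place of 0.89), 2 without Null replicate 2 or Het replicate 3 and 4 without Het replicate 5. It was 5 without Het replicate 4, 12 without Null replicate 3 and 16 without Null replicate 1, and 30 to 34 slopes were above 0 in these fits. With all libraries it was 3 under quantile normalization (median slope 0.28). Under the other settings it ran from 2 with the endothelial score to 18 with the other AT2 genes in place of Sftpc. The highest Pearson r over the 9 libraries were Wfs1 at 0.925, Pdia3 at 0.883 and Sec61b at 0.772, and the lowest Sec61g at -0.248, Eif2ak3 at -0.181 and Derl2 at -0.0531, with adjusted p of 0.607 and above by exact permutation. Of the 35 correlations 32 were above 0 (50.1% of all genes by slope), with a median r of 0.529 beside 0.0017 over all genes but Sftpc; Atf6, which fell with Sftpc in the first table, had r = 0.674 here, and the difference between the tables was not tested. With the other AT2 genes in place of Sftpc 12 members rose at an adjusted p under 0.05, where 2832 of all genes were called in either direction.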

How the data were processed

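RNA from sorted tdTomato-positive lung tumor cells was measured in 14 and 9 libraries of 50-base single-end reads. The deposited values are gene levels that the authors had quantified by Salmon and scaled by DESeq2 on Galaxy with default settings (signal values, not raw counts). GRCm38 stands in the submitters' processing notes; versions are not given in the sources used here. The authors' own fold changes and p-values were deposited too and not used. Few values (5.36% to 12.1% of those under 20) were whole multiples of 1 step within 0.001, so reads could not be recovered and depth in reads is unknown.

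Levels were tested on log2(value + 1), for genes with a mean of at least 10, with limma 3.58.1 (trend, R 4.3.3), two-sided, with Benjamini-Hochberg adjustment over all genes tested at a threshold of 0.05. Pooled and PGC1a comparisons took genotype alone, weekly ones a mean per genotype and week over all 14 libraries. Slopes were fitted on log2(Sftpc + 1). Permutation tests used 100000 permutations, or all orders for 9 libraries, where 100000 had been planned. Scripts were tested on simulated data. The 35 genes and all lists were chosen with earlier results of these data known. Genes given in every library were, in the table concerned, those called, the 3 highest and 3 lowest log2 values of the pooled, 6 week and PGC1a comparisons and a fixed set of 10 genes; for Sftpc the 3 highest and 3 lowest r are named; of the other lists, called genes or else the 2 extremes are named. The values of Ssr1, and of Pdia3 and Wfs1 in the second table, were given in every library after they were seen, and so chosen were the fits that leave out both BRAF/PI3K libraries of 2 weeks and the crossed pairing of 12 weeks. Alternatives were pseudocount 4, a mean of at least 40, no filter, quantile normalization, the replicate number as a block, sex, genotype or an endothelial score as a term, other AT2 genes for Sftpc, and leaving out libraries.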

Additional observations from a re-analysis of the deposited data

Results flagged for a closer look

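In 4 of 105 groups of 4 to 10 libraries, taken over the 35 genes, 1 library lay far from the rest by Dixon's criterion; chance gives about 5.25. Pdia3 was at 7214 normalized counts in BRAF/PI3K replicate 1 of 6 weeks, against 10554 to 10971 in the others of its group. That library also had the lowest Sftpc of 6 weeks. Dnajb11 was at 1389 in BRAF/PI3K replicate 4 of 6 weeks, against 2073 to 2229. Derl1 was at 128 in Het replicate 1, against 337 to 439, and Sec61b at 87.8 in Het replicate 5, against 144 to 171. Sec61b and Derl1 share 23.5% and 8.6% of their 31-base words with other genes.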

How the results depend on the processing

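No comparison between genotypes called a member under any setting, and none of the calls on Sftpc turned its sign. Among refits of the members 6577 of 7165 kept their direction and side of the threshold, 72 lost a call, 15 gained one, and 501 values that were not called changed sign. From 2 to 6 weeks the endothelial score gave 3 members, and 391 of all genes in place of 7; the cause was not tested. The slopes on Sftpc in the first table gave 0 rising and 0 falling members with the replicate number as a block (lowest adjusted p 0.0564 in limma, Sel1l; 801 of all genes called in place of 2880; median member slope 0.03), 1 and 0 with the endothelial score (313 of all genes), and 3 and 0 without both BRAF/PI3K libraries of 2 weeks (853), while quantile normalization gave 10 and 0 (1631); fits without 1 library gave 7 to 12 rising and 0 to 1 falling. With the other AT2 genes in place of Sftpc the second table gave 12 rising members, and 2832 of all genes in either direction. Of the 28 calls of the other lists the block kept 7. The causes were not tested. Replicate numbers gave no sign of pairing at 6 weeks, where same-numbered libraries correlated at -0.28, -0.03 and -0.01, or in the second table, at -0.47 to 0.21. At 12 weeks each group has 2 libraries. The same-numbered value of -0.15 and the crossed one of 0.15 then differ in sign only, and cannot show whether libraries are paired. In the crossed pairing at 12 weeks, chosen after seeing the data, 0 members were called, as with the block, which changed no other call of a member where it was run; over all genes it gave 0 in place of 3, 4 and 2 calls at 2, 6 and 12 weeks and 6 in place of 4 with weeks pooled.

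Among the genes named for a comparison, 11 values changed sign, none of them called, namely those of Tnfrsf10b pooled at 0.0030 without the 2 week libraries and Derl3 pooled at 0.21 without the BRAF/PI3K ones, Derl3 at 6 weeks at -0.19 with the block and -0.32 to 0.89 without 1 library, Ssr2 for Null minus Het at -0.038 to 0.26 without 1 library, and for Null minus Het with the endothelial score Ern1 at 0.44, Eif2ak3 at 0.14, Derl1 at 0.43 and Tmub1 at 0.12. The fit of Null minus Het with the endothelial score could hardly tell that score from genotype. The 2 week and 6 against 2 week comparisons without the single BRAF library of 2 weeks, and the block for comparisons between weeks, could not be fitted. Depth in reads is unknown, so counting error could not be set beside the low values of Derl3, Sec61b and Sec61g.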
